A study of Mus musculus with 6 samples.

Results

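This account covers 35 general epithelial identity genes in the embryonic mouse lung, out of 24402 loci measured by RNA-Seq. The genes were chosen by name as genes that most epithelia share whatever their organ, and each was taken as the locus whose gene name held that symbol. They were chosen with results of these same data in view, and *Mal2* was chosen for its large reduction, so the control and *Yap* mutant values are given as a description with no test. Whole lungs of C57BL/6 embryos were collected at 12.5 *dpc* (days post coitus). The control group held 3 libraries labelled wild type. The *Yap* mutant group held 3 libraries from littermates of the genotype Yap-flox/flox; Shh-Cre/+, which lacks YAP, a transcriptional co-activator of the Hippo pathway, in lung epithelium.

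Several features limit these groups as a model. Cre was made from the *Shh* locus, so *Yap* was removed from the epithelium and remained in the mesenchyme of the same lungs. The Shh-Cre allele also takes up 1 copy of *Shh*, and the wild-type controls carried neither that allele nor Cre. The values used here were given as FPKM, read fragments scaled to transcript length and to sequencing depth, with 1 value per locus and genotype in which the authors had already joined the 3 libraries of a group. No value per library was at hand, so no spread between replicates, standard error or p-value could be computed for any gene. FPKM takes gene length into account, so levels of different genes may be set side by side.

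Epithelial cells of different organs share a common set of components. They hold to each other by cadherins and desmosomes, carry an inner scaffold of keratin filaments, sort proteins to separate apical and basal surfaces, and splice many transcripts in an epithelial form under the ESRP proteins. Grainyhead-like, OVOL and epithelial ETS transcription factors maintain this state in many tissues. In the early lung the epithelium is a branching tube inside a larger mass of mesenchyme, so transcripts of whole lungs carry the epithelial genes diluted by those of other cells.

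Promoter sequences of a few of these genes show short motifs of 3 transcription factor families that bear on them, since YAP acts with TEAD factors and several of the 35 genes encode grainyhead-like or ETS factors themselves. RefSeq promoters on GRCm38.p6, running from 250 bases before to 50 bases after a start site, were found for 20 of the 35 genes as 23 promoters. *Mal2* was among the genes without one, so it was not searched for motifs. Both strands were searched and no match overlapped a match of another motif. The TEAD letters GGAATG occurred in 5 of the 23 promoters (21.7%, in *Elf3*, *Elf5*, *Fxyd3*, *Lsr* and *Tmprss2*) and in 14.7% of all 32851 promoters. The grainyhead letters AACCNGTT occurred in 3 of the 23 (13.0%, in *Prom1* and *Rab25*) and in 2.09% of all promoters. Since *Prom1* holds them in more than 1 promoter, these 3 belong to only 2 of the 20 genes, and nothing is read from the share. The ETS letters AGGAAG occurred in 8 of the 23 (34.8%) and in 35.4% of all. A match is a description of letters and not a site of binding. The 250 bases before the start are printed 5′ to 3′ on the strand of the gene. Promoters of *Lsr* and *Tmprss2*, which changed by less than 1.5-fold (log2 ratios −0.37 and 0.01), also hold the TEAD letters and are not printed. The first 3 printed hold the TEAD letters and belong to an epithelial ETS pair that changed in opposite directions and to *Fxyd3*. Capitals mark GGAATG or its reverse complement CATTCC in these 3 promoters. They lie on chr1:135258473-135258722 (minus strand), chr2:103411848-103412097 (plus strand) and chr7:31076698-31076947 (minus strand).
Elf3: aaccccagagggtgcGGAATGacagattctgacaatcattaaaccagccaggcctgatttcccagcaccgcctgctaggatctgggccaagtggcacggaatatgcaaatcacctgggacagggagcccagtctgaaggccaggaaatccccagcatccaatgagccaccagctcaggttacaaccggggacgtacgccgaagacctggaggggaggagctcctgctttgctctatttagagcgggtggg
Elf5: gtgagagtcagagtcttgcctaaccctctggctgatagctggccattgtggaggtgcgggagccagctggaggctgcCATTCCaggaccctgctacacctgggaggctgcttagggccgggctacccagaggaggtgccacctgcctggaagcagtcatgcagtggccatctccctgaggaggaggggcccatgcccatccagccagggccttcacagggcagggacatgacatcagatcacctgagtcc
Fxyd3: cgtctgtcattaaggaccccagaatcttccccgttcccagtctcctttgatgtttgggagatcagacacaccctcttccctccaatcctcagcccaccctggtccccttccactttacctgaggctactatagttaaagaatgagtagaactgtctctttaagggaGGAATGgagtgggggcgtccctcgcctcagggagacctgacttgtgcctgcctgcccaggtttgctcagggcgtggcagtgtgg

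The next 2 promoters hold the grainyhead letters, with AACCTGTT or its reverse complement AACAGGTT in capitals. They are shown because *Grhl2* is the grainyhead-like gene at the higher level in these lungs. They lie on chr3:88548280-88548529 (minus strand) and chr5:44101737-44101986 (minus strand). The 2 genes had unlike changes, as given with their values.
Rab25: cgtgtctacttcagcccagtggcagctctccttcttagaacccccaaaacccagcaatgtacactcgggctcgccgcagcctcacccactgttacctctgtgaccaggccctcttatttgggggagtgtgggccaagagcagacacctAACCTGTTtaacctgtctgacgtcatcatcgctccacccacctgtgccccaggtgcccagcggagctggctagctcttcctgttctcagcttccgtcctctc
Prom1: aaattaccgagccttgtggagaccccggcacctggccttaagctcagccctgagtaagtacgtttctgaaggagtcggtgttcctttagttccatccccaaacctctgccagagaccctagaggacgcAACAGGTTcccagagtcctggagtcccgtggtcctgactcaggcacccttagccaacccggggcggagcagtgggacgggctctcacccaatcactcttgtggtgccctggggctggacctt

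Before the values, some facts of the whole groups apply. The FPKM of all loci summed to 538651 in control and 522467 in *Yap* mutant lungs, and the number of reads behind them is unknown. *Yap1*, the targeted gene, was at 76.1 FPKM in control and 65.6 FPKM in mutant lungs, a log2 ratio of −0.21, in tissue whose mesenchyme keeps the gene. The lung epithelium was present in both groups, with its defining gene *Nkx2-1* at 61.9 and 35.9 FPKM. The 4 Y-linked genes checked lay at or under 0.0163 FPKM in control and between 4.61 and 16.5 FPKM in mutant lungs, while *Xist* was at 97.0 and 50.4 FPKM, so the groups differed in the sex of their embryos. None of the 35 genes lies on the X or Y chromosome. All 10 cardiac muscle markers were higher in mutant lungs, and their summed level was 62.4 FPKM in control and 590.2 FPKM in mutant lungs. The mutant sum holds 306 FPKM of *Myl7*, which the second deposited table gives as 87.8 FPKM, while none of the 35 epithelial genes differed between the 2 tables by more than 1%. A liver list of 8 genes summed to 9.436 and 41.36 FPKM. The neural genes *Tubb3*, *Elavl4* and *Sox10* were lower in mutant lungs, with log2 ratios of −0.82, −0.53 and −0.35, a range that overlaps that of the epithelial genes. Of 11 mesenchymal loci 3 were lower by at least 1.5-fold (27.3%, against 3.46% of all loci) and none was higher by that much (4.61% of all loci were). These differences separate the groups as a whole, and their part in the values below was not tested except where a value is given.

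Most of the epithelial genes were lower in *Yap* mutant lungs, by amounts that varied widely. Of all 35, 25 were lower and 10 higher by any amount, and none was at 0 in either group. A level of 1 FPKM or more, averaged over the groups, was required for counts and medians, and 29 genes passed it. The 6 that did not were *Grhl1*, *Ehf*, *Ovol1*, *Rab17*, *Tmem30b* and *Ppl*, whose values are given without being counted. By any amount, 22 of the 29 were lower and 7 higher, while of all 12716 loci that passed, 6583 were lower and 6133 higher. Of the 29, 15 were lower in mutant lungs by at least 1.5-fold (51.7%, against 3.46% of the 12716 loci that passed the same filter). Another 3 were higher by at least 1.5-fold (10.3%, against 4.61% of all), and 11 changed by less. At 2-fold, 4 were lower (1.38% of all loci were) and 3 were higher (2.24% of all). Since the genes were chosen with these values known, nothing is read from the shares. In bulk tissue, fewer epithelial cells and less of a transcript in each cell cannot be told apart.

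The median log2 ratio (mutant over control) of the 29 genes was −0.59, with an interquartile range of 0.80, from −0.89 to −0.08. Over all 12716 loci the median was −0.01 and the interquartile range 0.22, from −0.11 to 0.12. *Krt8*, *Krt19*, *Esrp1*, *Grhl2*, *Ap1m2* and *Myo5b* changed between 1.4-fold and 1.6-fold, so the count of 15 turns on small differences in these. Lower and higher genes were also counted by level of expression. Of the 12 genes averaging 10 FPKM or more, 11 were lower and 1 higher, with a median log2 ratio of −0.59. Of the 17 between 1 and 10 FPKM, 11 were lower and 6 higher, and the median was again −0.59. Of the 6 under 1 FPKM, 3 were lower and 3 higher. Shares over all loci were not computed by level, so nothing is read from these counts. Across the 29 genes, which share the same 6 libraries, the log2 of the mean level and the log2 ratio had a Spearman rho of 0.03 and a Pearson r of −0.04. All 3 genes higher by at least 1.5-fold, *Elf5*, *Dsc2* and *Fxyd3*, lay in the lower of these level classes.

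**Figure D1:**
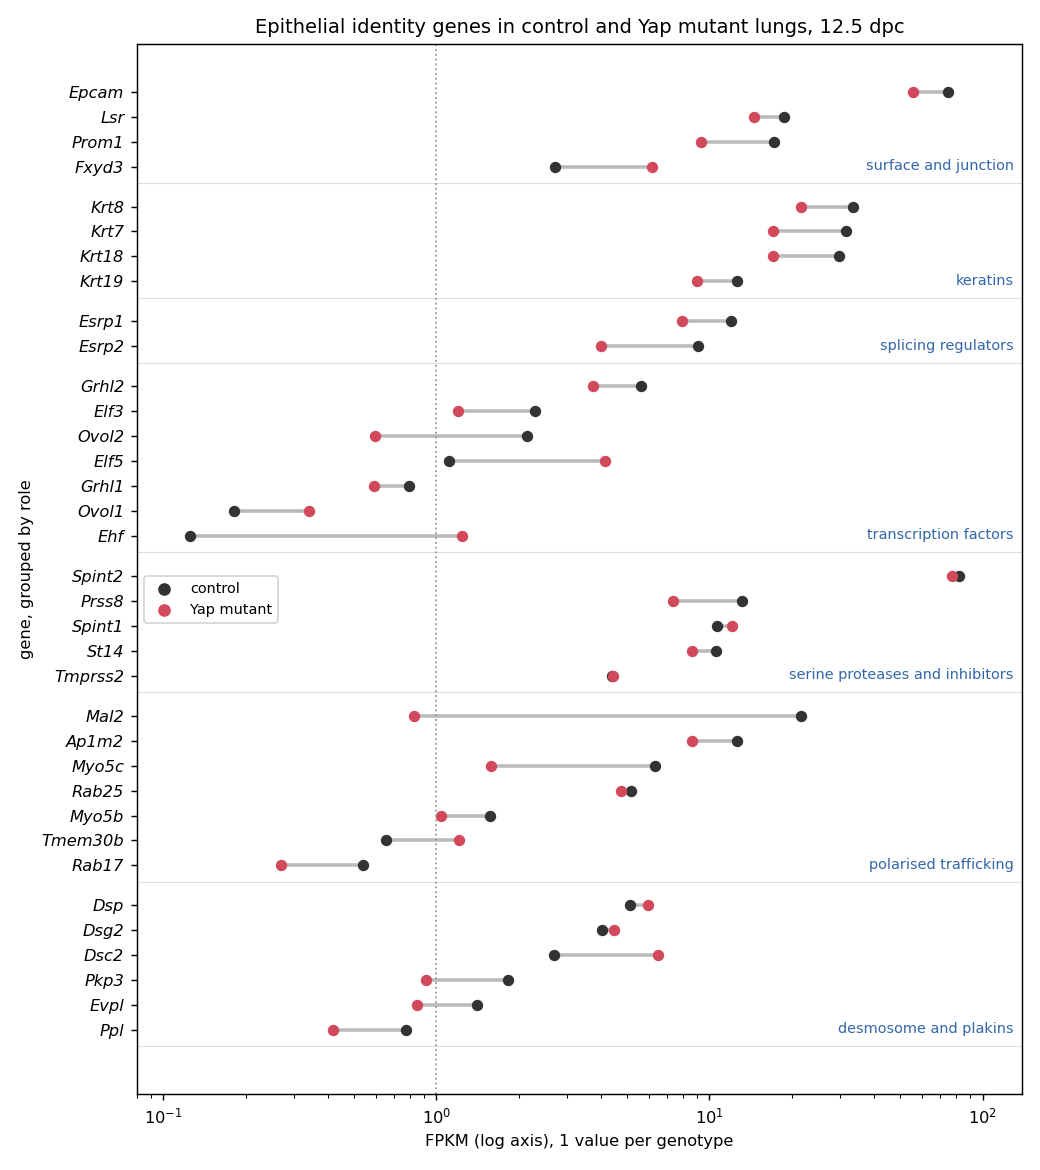
FPKM of each of the 35 genes on a log axis, grouped by role, with a black point for control and a red point for Yap mutant lungs (1 value per genotype, no error bars possible) and a dotted line at 1 FPKM. Most red points lie left of their black points, Mal2 has the longest leftward line from 21.6 to 0.829 FPKM, and Elf5, Ehf, Fxyd3 and Dsc2 run to the right.

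**Figure D2:**
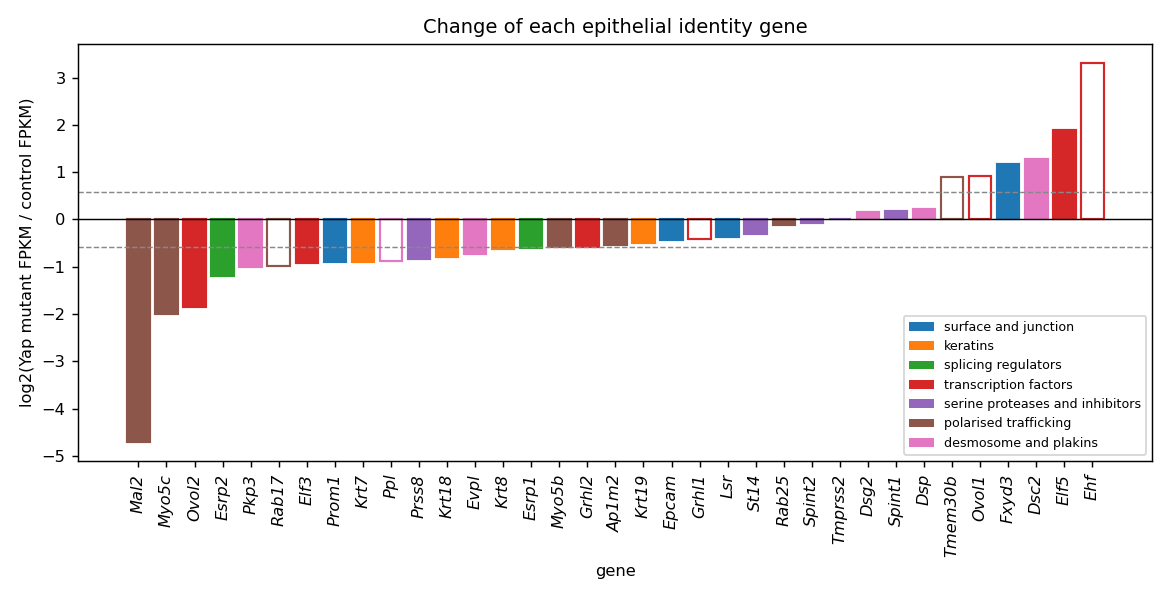
Log2 ratio of mutant over control FPKM for each gene, in order and coloured by role, with dashed lines at 1.5-fold and open bars for the 6 genes with a mean under 1 FPKM. The bars run from −4.71 for Mal2 to 3.31 for Ehf, and the bar of Tmprss2, at 0.01, is the shortest.

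Among surface and junction proteins, 3 of 4 were lower. *Epcam*, the adhesion molecule used to sort epithelial cells, was at 74.9 FPKM in control and 55.6 FPKM in mutant lungs (log2 ratio −0.43). It was second in level among the 35 in both groups and changed by less than 1.5-fold. *Prom1*, a membrane protein of apical protrusions, was at 17.2 and 9.31 FPKM (log2 ratio −0.89). *Lsr*, which recruits proteins to junctions where 3 cells meet, was at 18.7 and 14.5 FPKM (log2 ratio −0.37). The surface genes with the higher levels were thus lower in mutant lungs to unequal extents. *Fxyd3*, a small regulator of the sodium-potassium pump, went the other way, with 2.72 FPKM in control and 6.15 FPKM in mutant lungs (log2 ratio 1.17). Its locus interval, 10600 bases longer than the RefSeq gene, is shared with *Lgi4* on the opposite strand, which was at 0.619 and 0.426 FPKM. *Lsr* and *Fxyd3* lie 86.5 kb apart on chromosome 7. *Fxyd1*, another family member between them, was at 13.7 and 29.4 FPKM (log2 ratio 1.11), and the locus of *Fxyd5* and *Fxyd7* was at 14.5 and 11.5 FPKM (log2 ratio −0.35).

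The 4 keratins of simple epithelia were all lower and kept their proportions. *Krt8* and *Krt7*, which encode type II keratins, were at 33.5 and 31.7 FPKM in control lungs and at 21.6 and 17.1 FPKM in mutant lungs (log2 ratios −0.63 and −0.89). Their type I partners *Krt18* and *Krt19* were at 29.8 and 12.6 FPKM in control and at 17.1 and 8.97 FPKM in mutant lungs (log2 ratios −0.80 and −0.50). The summed level of the 4 was 108 FPKM in control and 64.8 FPKM in mutant lungs, a log2 ratio of −0.73. *Krt8* gave 31.2% of that sum in control and 33.4% in mutant lungs, *Krt18* 27.7% and 26.4%, *Krt7* 29.4% and 26.4%, and *Krt19* 11.7% and 13.8%. The make-up of the keratin pool thus differed little while its size differed. *Krt8* and *Krt18*, which pair into filaments, lie 23.9 kb apart on chromosome 15. The nearest genes beyond *Krt18*, *Eif4b* and *Tenc1*, had log2 ratios of 0.07 and 0.03.

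Other keratins were low in both groups. Of 10 on a list of basal, stratified and other keratins, 2 passed the filter, namely *Krt14* (0.884 and 1.84 FPKM) and *Krt23* (0.698 and 1.59 FPKM), both higher in mutant lungs. *Krt15*, just under the filter, was at 1.4 and 0.530 FPKM. *Krt4* and *Krt6a* were listed at 0 in both groups and *Krt13* at 0 in the mutant group. The simple keratins therefore made up nearly all of the keratin signal on these lists.

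Both epithelial splicing regulators were lower, by different amounts. *Esrp1* was at 12.0 FPKM in control and 7.91 FPKM in mutant lungs (log2 ratio −0.60). *Esrp2* was at 9.07 and 3.99 FPKM (log2 ratio −1.19). *Esrp1* exceeded *Esrp2* by 1.32 times in control and by 1.98 times in mutant lungs, and their summed level was 21.1 and 11.9 FPKM. The locus of *Esrp2* on chromosome 8 also covers *Nfatc3* on the opposite strand, which was at 21.9 and 21.0 FPKM. Whether reads were counted by strand is not given in the sources used here, so the values of *Esrp2*, and those of *Fxyd3* and *Prss8*, which also share a locus, are less certain than the others. Splice forms themselves were not measured by these values.

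The transcription factors moved in both directions, and 3 of the 7 were too low to be counted. *Grhl2*, the grainyhead-like factor that maintains epithelial junction genes, was at 5.62 FPKM in control and 3.75 FPKM in mutant lungs (log2 ratio −0.59, a change that only just reached 1.5-fold). *Grhl1* was at 0.793 and 0.592 FPKM (log2 ratio −0.42) and gave 12.4% and 13.7% of the summed pair. *Ovol2*, a zinc-finger repressor of mesenchymal genes, was at 2.14 and 0.595 FPKM (log2 ratio −1.85, 3.61-fold lower). Its relative *Ovol1* was at 0.182 and 0.343 FPKM (log2 ratio 0.91), too low to be counted. *Ovol2* exceeded *Ovol1* by 11.8 times in control and by 1.73 times in mutant lungs, and the pair summed to 2.33 and 0.938 FPKM.

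The 3 epithelial ETS factors exchanged their order. *Elf3* was at 2.29 FPKM in control and 1.2 FPKM in mutant lungs (log2 ratio −0.93). *Elf5*, known in the lung as a gene of the distal tip epithelium, was at 1.11 and 4.14 FPKM (log2 ratio 1.90, 3.73-fold higher). *Ehf* was at 0.125 and 1.24 FPKM (log2 ratio 3.31), with a mean under 1 FPKM. *Elf3* gave 65.0% of the summed level of the 3 in control and 18.3% in mutant lungs, *Elf5* 31.5% and 62.9%, and *Ehf* 3.53% and 18.8%. The sum itself was 3.53 FPKM in control and 6.59 FPKM in mutant lungs. *Elf5* and *Ehf* lie 109 kb apart on chromosome 2, in opposite orientation. Of the genes flanking them, *Cat* was at 38.1 and 42.9 FPKM (log2 ratio 0.17), *Abtb2* had a log2 ratio of 0.25, and *Apip* and *Pdhx* had 0.04 each. In the same lungs a list of 8 genes of stratified and oesophageal epithelium summed to 3.092 FPKM in control and 3.198 FPKM in mutant lungs, with *Krt4* and *Dsg3* at 0 in both. These sums hide opposite changes. *Krt14*, the 1 gene that passed the filter, was at 0.884 and 1.84 FPKM, and *Krt15*, just under the filter, was at 1.4 and 0.530 FPKM.

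Membrane serine proteases and their inhibitors had the median log2 ratio nearest to 0 of all roles, at −0.08. *Prss8*, which encodes prostasin, was the exception, with 13.2 FPKM in control and 7.36 FPKM in mutant lungs (log2 ratio −0.84). The locus of *Prss8* on chromosome 7 also covers *Kat8* on the opposite strand, which was at 15.7 and 15.5 FPKM. *St14*, which encodes matriptase, was at 10.6 and 8.62 FPKM (log2 ratio −0.30), and *Tmprss2* was at 4.39 and 4.42 FPKM (log2 ratio 0.01). The 3 proteases summed to 28.2 and 20.4 FPKM. Both inhibitors changed by less than 1.5-fold. *Spint2*, the highest of all 35 genes in both groups, was at 82.2 and 77.6 FPKM (log2 ratio −0.08), and *Spint1* was at 10.7 and 12.1 FPKM (log2 ratio 0.17). As a result *Spint1* stood at 0.81 times the level of *Prss8* in control lungs and at 1.64 times its level in mutant lungs.

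Genes of polarised trafficking held both the largest reduction and some of the smallest. *Mal2*, a membrane protein of the route that carries proteins across epithelial cells, was at 21.6 FPKM in control and 0.829 FPKM in mutant lungs (log2 ratio −4.71, 26.1-fold lower). It stood ninth from the lowest of 12716 loci, below which lay 5 loci at 0 in mutant lungs and 3 loci with no gene name. *Mal2* was sixth in level among the 35 in control and 30th in mutant lungs. Its locus, chr15:54571366-54602846 on the plus strand, matches the RefSeq gene in length and holds no other coding gene. *Myo5c*, an epithelial class V myosin that moves secretory vesicles, was at 6.31 and 1.59 FPKM (log2 ratio −1.99, 3.96-fold lower). *Myo5b*, the motor of apical recycling endosomes, was at 1.57 and 1.04 FPKM (log2 ratio −0.59). *Myo5c* exceeded *Myo5b* by 4.01 times in control and by 1.53 times in mutant lungs.

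The remaining trafficking genes changed by less or were low. *Ap1m2*, the subunit that makes the AP-1 adaptor of basolateral sorting specific to epithelia, was at 12.6 and 8.66 FPKM (log2 ratio −0.54). *Rab25*, a small GTPase of apical recycling, was at 5.14 and 4.76 FPKM (log2 ratio −0.11). *Rab17*, another epithelial GTPase, was at 0.538 and 0.270 FPKM (log2 ratio −0.99), and *Tmem30b*, a subunit of lipid flippases, was at 0.652 and 1.21 FPKM (log2 ratio 0.89). These last 2 had means under 1 FPKM. The 7 trafficking genes together summed to 48.45 FPKM in control and 18.36 FPKM in mutant lungs, and *Mal2* alone made most of the difference.

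Relatives of the same families, listed as broadly expressed, stayed nearer to the control level. Of 8 such genes 7 passed the filter and none changed by 1.5-fold or more in either direction, with a median log2 ratio of 0.05. Of all 12716 loci that passed, 11690 also changed by less than 1.5-fold, so nothing is read from that count. *Myo5a* was at 8.03 and 8.30 FPKM, so it exceeded *Myo5c* by 1.27 times in control lungs and by 5.21 times in mutant lungs. *Ap1m1*, the ubiquitous form of the subunit, was at 42.7 and 44.8 FPKM. *Rab11a* and *Rab11b*, relatives of *Rab25*, had log2 ratios of 0.07 and −0.05. *Tmem30a* had 0.15. *Pkp4* was lower, with 24.1 FPKM in control and 16.3 FPKM in mutant lungs (log2 ratio −0.56), and *Fxyd6* was at 37.6 and 31.1 FPKM (log2 ratio −0.27). *Mal*, the closest relative of *Mal2*, was on that list but low in these lungs, at 0.699 and 1.01 FPKM, with a mean under 1 FPKM. In control lungs *Mal* was thus a small fraction of *Mal2*, and in mutant lungs it was 1.22 times its level.

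**Figure D3:**
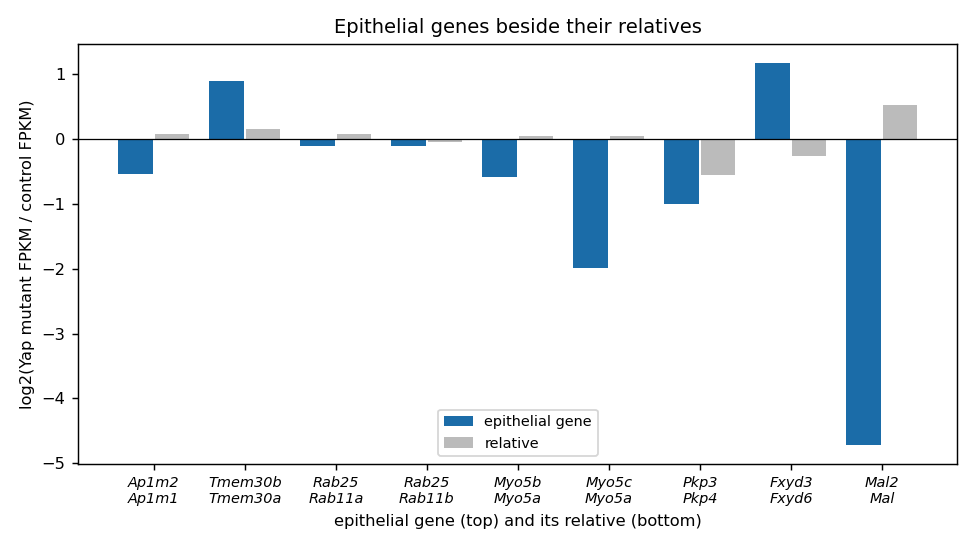
Log2 ratio of mutant over control FPKM for 9 pairs of an epithelial gene (blue) and a relative of its family (grey), from 1 value per genotype. The grey bars lie between −0.56 for Pkp4 and 0.53 for Mal, while the blue bars run from −4.71 for Mal2 to 1.17 for Fxyd3.

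Desmosome and plakin genes did not share one direction. *Pkp3*, a plakophilin that links desmosomal cadherins to desmoplakin, was at 1.83 FPKM in control and 0.916 FPKM in mutant lungs (log2 ratio −1.0). The plakins of the cell envelope were lower too, *Evpl* with 1.41 and 0.852 FPKM (log2 ratio −0.73) and *Ppl* with 0.771 and 0.419 FPKM (log2 ratio −0.88), the latter with a mean under 1 FPKM. The core desmosome genes were not lower. *Dsp*, which encodes desmoplakin, was at 5.10 and 5.95 FPKM (log2 ratio 0.22), and the cadherin *Dsg2* was at 4.04 and 4.47 FPKM (log2 ratio 0.15). *Dsc2*, the other desmosomal cadherin, was at 2.69 and 6.48 FPKM (log2 ratio 1.27), so that it stood at 0.667 times *Dsg2* in control and at 1.45 times *Dsg2* in mutant lungs. Of 8 further desmosome genes 3 passed the filter, and all 3 were higher in mutant lungs. *Jup*, which encodes plakoglobin, had a log2 ratio of 0.11, *Pkp2* was at 2.42 and 3.53 FPKM (log2 ratio 0.54), and *Perp* was at 1.61 and 3.56 FPKM (log2 ratio 1.15). *Dsg1a* and *Dsg3* were at 0 in both groups, and *Dsc1* was at 0 in the mutant group.

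Desmosomes also join heart muscle cells, which use *Dsp*, *Dsg2*, *Dsc2*, *Pkp2* and *Jup*. Beside these genes, 9 of 10 cardiac markers passed the filter. All 9 were higher by at least 1.5-fold (4.61% of all loci were), with a median log2 ratio of 3.33. The highest ratios were those of *Nppa*, an atrial hormone (0.581 and 57.9 FPKM, log2 ratio 6.64), and *Pln*, which encodes phospholamban (0.0543 and 3.14 FPKM, log2 ratio 5.86). No cardiac marker was at 0 in either group. The part of heart RNA in the levels of the desmosome genes was not tested.

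**Figure D4:**
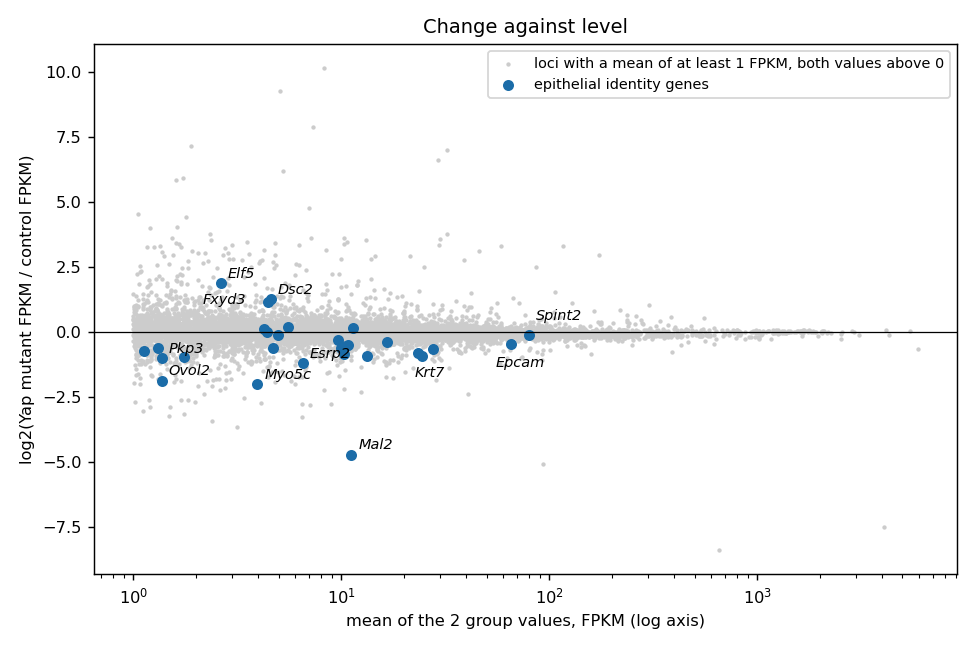
Log2 ratio of mutant over control FPKM (vertical axis) against the mean of both groups (horizontal log axis, FPKM) for loci that averaged 1 FPKM or more with both values above 0 (grey) and the 29 epithelial genes among them (blue). Mal2, at a mean of 11.2 FPKM, lies far below the other blue points, and the 3 highest blue points, Elf5, Dsc2 and Fxyd3, have means under 10 FPKM.

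A further 25 epithelial genes not among the 35, such as cadherins, claudins and tight-junction proteins, were set beside them. Of these, 19 passed the filter, 14 were lower and 5 higher by any amount. Of all 12716 loci that passed, 6583 were lower and 6133 higher by any amount. By at least 1.5-fold, 5 of the 19 genes were lower (26.3%, against 3.46% of all loci) and 2 higher (10.5%, against 4.61%), with a median log2 ratio of −0.25. The lowest log2 ratios were those of *Epn3*, an epsin (2.80 and 1.23 FPKM, −1.18), and *Tjp3*, which encodes the tight-junction protein ZO-3 (2.18 and 0.972 FPKM, −1.17). The highest were those of *Bspry* (6.10 and 11.6 FPKM, 0.93) and *Fermt1*, a kindlin of cell-matrix adhesion (0.712 and 1.32 FPKM, 0.89). *Cdh1*, which encodes E-cadherin, was at 20.3 and 17.7 FPKM (log2 ratio −0.20), a smaller difference than for *Epcam*. The claudins were unlike each other, with *Cldn4* at 19.6 and 8.87 FPKM (log2 ratio −1.15) and *Cldn7* at 28.8 and 30.5 FPKM (log2 ratio 0.08); these 3 genes were picked after their values were seen.

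Genes of lung epithelial lineage were set beside the general epithelial genes, although they are themselves regulated and their log2 ratios ran from −2.76 to 0.97. Of 10, 7 were lower (70.0%, against 3.46% of all loci) and 2 higher (20.0%, against 4.61%) by at least 1.5-fold. The median log2 ratio of the 10 was −0.82. The lowest were *Shh* (15.6 and 2.31 FPKM, log2 ratio −2.76), 1 copy of which the Cre allele takes up in mutants, and *Sox2*, a factor of the proximal airway (9.65 and 2.91 FPKM, log2 ratio −1.73). The highest were *Sftpc* of the distal epithelium (28.4 and 55.8 FPKM, log2 ratio 0.97) and *Gata6* (35 and 56 FPKM, log2 ratio 0.68). The part of other cell types, heart included, in the level of *Gata6* was not tested. Set against the lineage median, 20 of the 29 general epithelial genes had a higher log2 ratio and 9 had one at or below it, and 12 lay within 0.3 of it. Relative to that median the 4 keratins were at −0.07 (*Krt7*), 0.02 (*Krt18*), 0.18 (*Krt8*) and 0.32 (*Krt19*). *Mal2* at −3.89, *Myo5c* at −1.17 and *Ovol2* at −1.03 remained far below it, and *Elf5* at 2.72, *Dsc2* at 2.08 and *Fxyd3* at 1.99 far above.

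**Figure D5:**
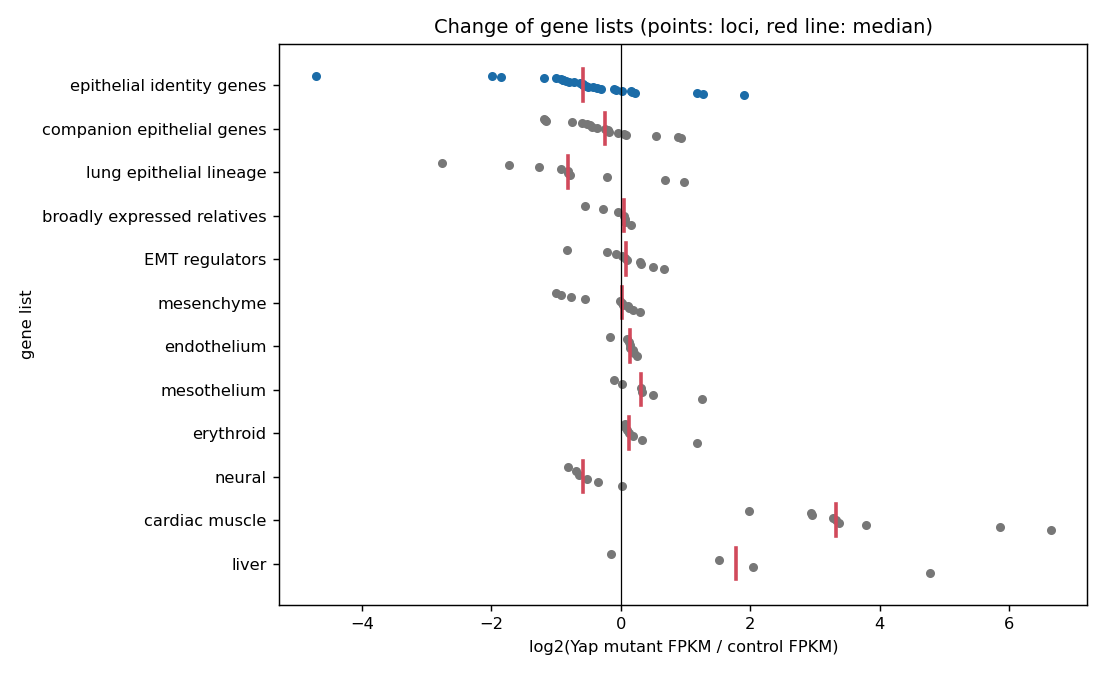
Log2 ratio of mutant over control FPKM for each locus of the 35 genes (blue) and of other gene lists (grey) that averaged 1 FPKM or more, each list on its own row with a red line at its median. The medians are −0.59 for the epithelial identity genes, −0.82 for lung epithelial lineage, −0.25 for the companion epithelial genes and 3.33 for cardiac muscle.

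Genes of epithelial-to-mesenchymal transition had a median log2 ratio of 0.08 over 10 loci, of which 1 was lower and 1 higher by at least 1.5-fold. *Twist2* was at 20.1 and 11.3 FPKM (log2 ratio −0.83) and *Fn1*, which encodes fibronectin, at 59.2 and 93.6 FPKM (log2 ratio 0.66). *Snai2* was at 93.6 and 81.1 FPKM (log2 ratio −0.21) and *Zeb1*, a repressor of epithelial genes, at 7.91 and 11.1 FPKM (log2 ratio 0.49). These genes thus went both ways, and nothing is read from counts of 1. Mesenchyme also expresses many of them, and its own list of 11 loci had a median log2 ratio of 0.02.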

How the data were processed

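RNA was extracted by the authors from whole lungs at 12.5 *dpc*, made into strand-specific libraries and sequenced. The submitters' processing notes name TopHat, Cuffdiff and mm10, with no versions. The deposited FPKM values were made by the authors, who joined the 3 libraries of each genotype into 1 value per locus. The unit was read from the layout and the study's tools. The authors' fold changes, test statistics and p-values in the same 2 tables were not used. Depth per library is not given in the sources used here, so its precision is unknown and no interval was computed. Interval starts were moved by 1 base, because 9306 loci then matched the RefSeq start exactly and 617 did so as written.

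Log2 ratios of mutant over control FPKM were computed without a pseudocount in Python 3.11.15 with pandas 2.3.3 and numpy 2.4.6, for loci averaging 1 FPKM or more. A change was counted at 1.5-fold and at 2-fold, and no test was run. Counting was tested on simulated data. The text names all 35 genes, *Yap1*, the broadly expressed relatives and, from other lists, some of the genes with the 2 lowest and 2 highest ratios and those at 0. Other genes named, such as *Nkx2-1*, *Krt15*, *Wnt2*, *Myl7*, neural markers and neighbours on the chromosome, were picked with their values in view. Some marker genes are not reported here. Members and lists were chosen with earlier results of these data known. Alternatives were other filters, pseudocounts, centrings, folds and the second table, which lists loci the authors called changed.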

Additional observations from a re-analysis of the deposited data

How the results depend on the processing

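The count of 15 epithelial genes lower by at least 1.5-fold became 8 when an average of 5 FPKM was required, 9 with a pseudocount of 1 FPKM, 4 at 2-fold and 3 relative to the median of the lung epithelial lineage. The count of 3 higher genes became 0 at an average of 5 FPKM or more, 6 without a filter and 9 relative to the lineage median. The median log2 ratio of −0.59 turned to 0.23 relative to the lineage median, which is itself lower, and the interquartile range of 0.80 became 0.50 at an average of 5 FPKM or more. For the companion epithelial genes the median of −0.25 became −0.45 at an average of 5 FPKM or more and −0.47 without a filter, and turned to 0.56 relative to the lineage median. The other 37 recomputed values stayed within the limits set for them, including, as alternatives chosen after seeing the data, 14 lower genes without *Mal2* and 13 without the 3 genes whose loci reach over 5 kb past the RefSeq gene. Some of the 37 were fixed or nearly fixed in advance and show no stability. Centring cannot change an interquartile range, and the 35 genes hardly differ between the 2 tables. All 10 lineage genes also passed every filter. No paired analysis was possible because each genotype had 1 joined value, and leaving out single libraries was not run for the same reason. Genes under 1 FPKM in a group, *Mal2*, *Ovol2*, *Pkp3* and *Evpl* among those counted, had low levels, and the reads behind them are unknown.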

Other observations

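Endothelial genes had a median log2 ratio of 0.14 over 8 loci, from *Emcn* (20.8 and 18.4 FPKM, −0.17) to *Tie1* (24.2 and 28.9 FPKM, 0.25). None of the 8 changed by 1.5-fold, and neither did 11690 of all 12716 loci that passed the filter, so nothing is read from that count. Mesothelial genes had a median log2 ratio of 0.31, with 5 of the 6 that passed the filter higher by any amount. Of the 6, 1 was higher by 1.5-fold or more (16.7%, against 4.61% of all loci), *Tbx18* (2.65 and 6.36 FPKM, log2 ratio 1.26). Of 11 mesenchymal loci, with a median of 0.02, 3 were lower by at least 1.5-fold (27.3%, against 3.46% of all loci) and none was higher by that much. These 3 were *Foxf1* (83.5 and 41.6 FPKM, log2 ratio −1.0), *Wnt2* (46.5 and 27.3 FPKM, log2 ratio −0.77) and a locus of *Tcf21* (3.70 and 1.96 FPKM, log2 ratio −0.92). The other locus of *Tcf21*, at a higher level, was at 57.4 and 39.2 FPKM (log2 ratio −0.55) and changed by less than 1.5-fold. The highest ratio was that of *Tbx5* (43.9 and 54.2 FPKM, 0.30). Erythroid loci had a median of 0.12 over 7. Among liver genes *Ttr* was at 0.492 and 13.5 FPKM (log2 ratio 4.78) and *Alb* at 1.28 and 1.14 FPKM (log2 ratio −0.16). Each is 1 value per genotype with no replicate spread.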
